A study of Homo sapiens with 4 samples.

Results

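Cystatins are the cell's own inhibitors of cysteine proteases, and 6 genes of the family were followed here in MHCC97H, an established human hepatocellular carcinoma line with high metastatic capacity. The genes were taken by name (CST1, CST2, CST3, CST4, CST6, CSTA and CSTB), and the family had been chosen by someone who already knew the knockdown and control RPKM of these same libraries. The differences of the members between the groups are therefore a description, given with errors and without p-values. Of the 7 names, 6 had a row among the 39306 gene names of the tables, and CST6, which encodes cystatin M/E, was not analysed here. RNA sequencing of total RNA depleted of ribosomal RNA was available for 2 control libraries, labelled wild type, and 2 knockdown libraries, in which a short hairpin RNA targeted HNRNPM. HNRNPM is heterogeneous nuclear ribonucleoprotein M, a splicing regulator, and the study's title concerns its part in this cancer. The labels name no control hairpin for the wild-type cells, do not say whether both knockdown libraries carry 1 hairpin, and do not say whether the replicates were separate cultures, so errors and p-values measure only the spread between libraries, which may be technical.

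The family falls into groups by where the proteins work. CST1, CST2, CST3 and CST4 encode secreted, type 2 cystatins: cystatin SN, cystatin SA, cystatin C and cystatin S. They are made with a signal peptide and inhibit papain-like cathepsins that have left the lysosome or the cell. CSTA and CSTB encode cystatin A and cystatin B, the type 1 cystatins or stefins, which stay in the cytosol and nucleus and guard against cathepsins leaking from lysosomes. Cystatin C is made by nearly all nucleated cells, whereas cystatins SN, SA and S are best known from saliva and tears, and CST1 has been studied in several epithelial tumours.

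All 6 genes were compact, and 4 of them lie side by side. By the coordinates of the files (GRCh38), CST3 (chr20:23626706-23638473), CST4 (chr20:23685640-23689040), CST1 (chr20:23747553-23751268) and CST2 (chr20:23823769-23826731) share the minus strand within 200.0 kb of chromosome 20. CSTB lies on chromosome 21 (chr21:43772512-43776445, minus strand) and CSTA on chromosome 3 (chr3:122325244-122341972, plus strand). RPKM counts reads per kilobase of annotated exon, scaled to the assigned reads of the library, and the exons of the 6 genes shared no base with those of another gene in the tables. In GENCODE 29 the first listed coding transcript of each gene had 3 exons, all of them partly coding. The coding sequence, without the stop codon, was 423 bases long in CST1, CST2 and CST4, 438 in CST3 and 294 in both stefins.

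The secreted genes CST1, CST2 and CST4 are near copies of each other, which bears on every value printed for them. Their coding sequences were 92.7% identical between CST1 and CST4, 91.3% between CST1 and CST2 and 92.4% between CST2 and CST4. CST3 was further off, at 72.1% of aligned bases with CST1, and the stefins CSTA and CSTB shared 58.2% with each other. The coding part of the first exon, 228 bases long, holds most of the differences, with 27 bases of CST2 and 26 of CST4 differing from CST1 at the same position.

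The second exon, coding throughout its 114 bases, is shown because, of the coding parts, it is where CST4 differs least from CST1. Capitals mark bases that differ from CST1 at the same position, 5 in CST2 and 1 in CST4, and the sequences are read 5′ to 3′ on the coding strand from GENCODE 29 (GRCh38).

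CST1 (chr20:23749016-23749129, minus strand): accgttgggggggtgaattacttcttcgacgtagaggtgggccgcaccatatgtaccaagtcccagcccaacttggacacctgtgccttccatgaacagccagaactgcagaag
CST2 (chr20:23825210-23825323, minus strand): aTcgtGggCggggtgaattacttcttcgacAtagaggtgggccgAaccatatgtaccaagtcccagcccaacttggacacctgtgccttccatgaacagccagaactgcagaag
CST4 (chr20:23687088-23687201, minus strand): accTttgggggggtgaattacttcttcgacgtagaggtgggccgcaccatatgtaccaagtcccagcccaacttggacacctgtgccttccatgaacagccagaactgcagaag

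Reads were 150 bases long per the labels. Of the 611 stretches of that length in the CST1 transcript, 3 were identical to a stretch of CST4 and 75 (12.3%) matched one within 2 mismatches, compared without gaps. The 75 began at bases 295 to 326 of the transcript and, nearer its 3′ end, at bases 525 to 567. No stretch of CST1 came within 2 mismatches of CST2 or CST3, and the closest had 4 and 15. For CST2, 32 of 599 stretches (5.3%) lay within 2 mismatches of CST4. The sources used here do not give how reads matching several genes were counted, so the level of CST4 is uncertain beside the far more abundant CST1. That of CST2 is less uncertain, since its stretches within 2 mismatches were near CST4 and none was that near CST1.

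**Figure D1:**
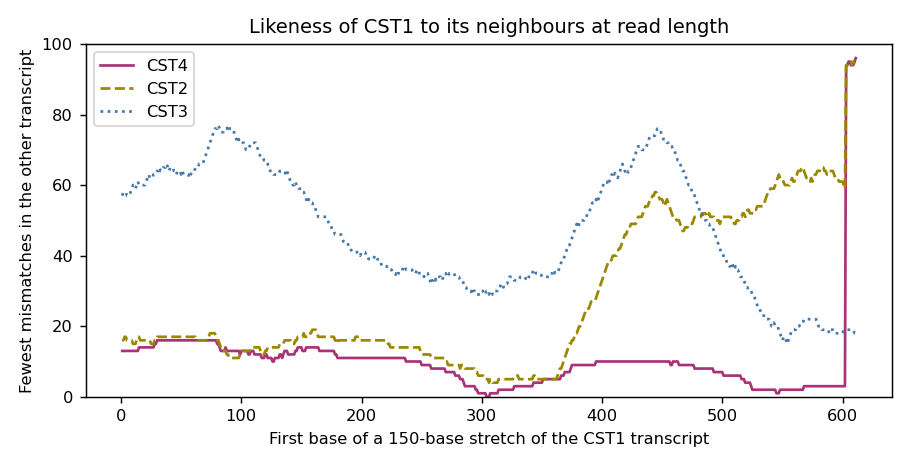
Fewest mismatches, without gaps, between each 150-base stretch of the CST1 transcript (x axis, first base) and any stretch of the CST4, CST2 or CST3 transcript (y axis). The CST4 line reaches 0 in the middle of the transcript and falls to 1 again nearer the right end, and the CST2 line does not fall below 4. The jump at the right end is where the CST2 and CST4 transcripts stop short of CST1.

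Depth and the knockdown itself were checked first. The reads recovered from the tables numbered 18317579 and 19659106 for the controls, and 12708165 and 11498663 for the knockdown. HNRNPM measured 51.3 and 51.6 RPKM in the controls and 21.8 and 20.4 RPKM in the knockdown libraries, 41.0% of the control mean (log2 difference -1.35 ± 0.07 SE, limma adjusted p = 0.0027). Of 20221 genes tested, 5032 (24.9%) passed an adjusted p of 0.05 in limma, 2240 (11.1%) higher and 2792 (13.8%) lower in knockdown cells. Without the TMM scaling factors the split was 2783 higher and 2234 lower. The median log2 difference of all tested genes was -0.03. Of the hepatocyte markers listed, HNF4A (6.41 ± 0.142 RPKM in the controls, SD, n = 2) was present, while AFP was near 0 at 0.366 ± 0.0983 RPKM and ALB was low at 5.82 ± 0.658 RPKM. The epithelial keratins KRT8, KRT18 and KRT19 were abundant. The other epithelial markers were low in the controls, CDH1 at 2.49 ± 0.467 RPKM and EPCAM at 0.137 ± 0.0512 RPKM. The leukocyte marker PTPRC had 0 to 4 reads a library. The other leukocyte markers with a row were detected in the controls, CD68 at 52.1 ± 8.00 RPKM and CD79A at 5.23 ± 0.457 RPKM.

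By RPKM, CST3 and CSTB dominated the family in control cells, and in knockdown cells CST1 stood level with both. RPKM divides by annotated exon length, 3695 bases for CST3, 2490 for CSTB and 872 for CST1. Their first listed coding transcripts had 873, 2164 and 760 bases, so the order between genes depends on the length used. In reads, CST3 had 1934 and 1949 in the knockdown libraries, against 453 and 433 for CST1. The control order by level was CST3, CSTB, CST1, CST2, CSTA and CST4, and no neighbours in that order overlapped between libraries. Among all tested genes, the control mean of CST3 stood at percentile 96.2, that of CSTB at 89.1 and that of CST1 at 72.0, while CST2, CSTA and CST4 stood at 30.3, 14.0 and 5.42. In the knockdown libraries CST3, CSTB and CST1 lay between 40.9 and 45.9 RPKM and overlapped one another. CST2 followed, and CSTA and CST4 overlapped at the bottom of the order.

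CST1, the gene of cystatin SN, showed the widest difference of the family. Its level was 7.14 and 9.04 RPKM in the controls and 40.9 and 43.2 RPKM in the knockdown libraries. Both knockdown libraries were far above both controls. These levels rest on 114 and 155 reads for the controls and on 453 and 433 reads for the knockdown. The log2 difference on the scale of log2(RPKM + 0.1) was 2.31 ± 0.13 (SE), a fold of 4.96 with a 95% interval of 3.97 to 6.19, and it ranked at position 21 from the top among the 20221 tested genes.

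CST4, the gene of cystatin S, was barely detected in control cells. It measured 0.218 and 0.339 RPKM in the controls, from 3 and 5 reads. In the knockdown libraries it measured 1.15 and 0.926 RPKM, from 11 and 8 reads, so the groups did not overlap. The ratio of depth-scaled reads over the pooled libraries was 3.73, with an exact 95% counting interval of 1.56 to 9.84. The log2 difference was 1.55 ± 0.24 (SE), and it shrank to 0.65 with a pseudocount of 1. CST4 entered the test only through the knockdown libraries, in which it was higher. Reads assigned to CST4 amounted to 2.63% and 3.23% of those assigned to CST1 in the controls, against 2.43% and 1.85% after knockdown. CST4 reads thus moved with CST1 reads, and the part that reads of CST1 origin have in the CST4 value was not tested.

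CST2, the gene of cystatin SA and the neighbour of CST1 on its other side, showed no such shift. It measured 1.97 and 1.22 RPKM in the controls and 2.10 and 1.40 RPKM in the knockdown libraries, from 12 to 27 reads a library. The groups overlapped. Its log2 difference was 0.07 ± 0.28 (SE), and the 95% interval of the fold, 0.645 to 1.72, does not show that the levels were alike. The sign turned without control replicate 2 (-0.24) and without knockdown replicate 1 (-0.20). CST2 reads equalled 23.7% and 11.6% of CST1 reads in the controls, against 4.42% and 2.77% after knockdown. With CST1, CST2 and CST4 summed into 1 feature, a setting added after the data were seen, the level was 9.33 and 10.6 RPKM in the controls and 44.1 and 45.5 RPKM in the knockdown libraries (log2 difference 2.10 ± 0.09 SE).

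CST3, the gene of cystatin C and the most abundant member in control cells, was the 1 member with a lower level in knockdown cells. It measured 51.1 and 57.9 RPKM in the controls against 41.2 and 45.9 RPKM in the knockdown libraries, from 1934 to 4208 reads. The groups did not overlap, though the gap between the lower control and the higher knockdown library was narrow. The log2 difference was -0.39 ± 0.10 (SE), a fold of 0.765 with a 95% interval of 0.644 to 0.908. It no longer passed the threshold without control replicate 2 (-0.29), without knockdown replicate 1 (-0.30) or without knockdown replicate 2 (-0.47), nor without TMM factors (-0.32).

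The cytosolic stefins lay at very different levels, CSTB far above CSTA. CSTB, the gene of cystatin B, whose loss causes a progressive myoclonic epilepsy, measured 22.2 and 19.4 RPKM in the controls and 43.8 and 41.4 RPKM in the knockdown libraries. The groups were well apart, and 948 to 1386 reads stood behind each level. The log2 difference was 0.97 ± 0.08 (SE), a fold of 1.96 with a 95% interval of 1.69 to 2.27. CSTA, the gene of cystatin A, which is abundant in skin and lining epithelia, measured 0.557 and 0.741 RPKM in the controls and 1.09 and 0.950 RPKM in the knockdown libraries. The groups did not overlap, but only 14 to 20 reads a library were available. Its log2 difference was 0.53 ± 0.20 (SE), with a 95% interval of 0.03 to 1.03, and the counting interval of the ratio of depth-scaled reads, 0.946 to 2.60, includes no difference. CSTA stayed at 2.30% to 3.83% of the CSTB level in all 4 libraries.

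**Figure D2:**
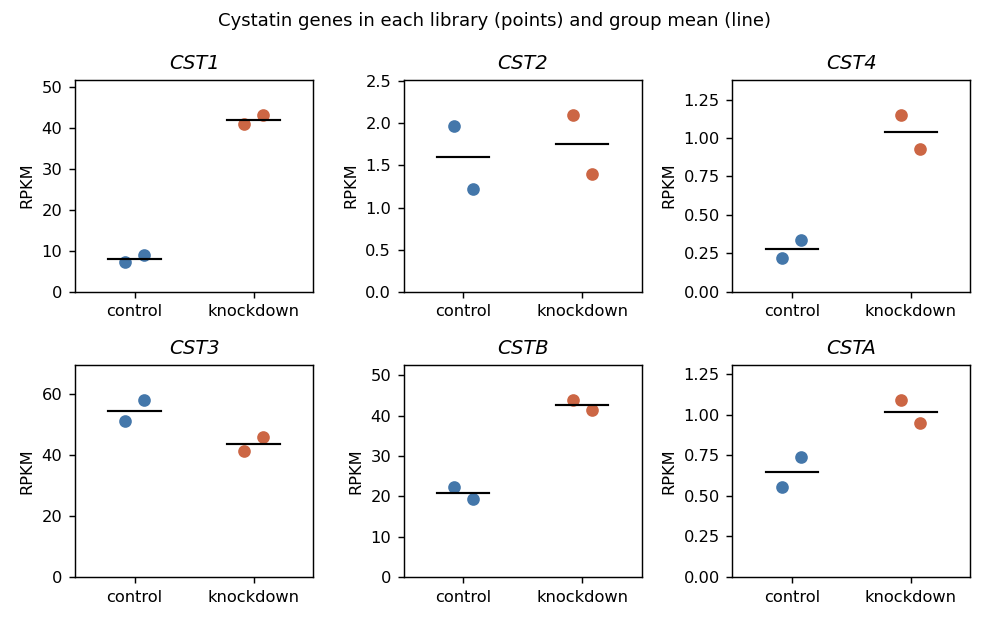
RPKM of the 6 cystatin genes in each of the 2 control and 2 knockdown libraries (points), with the group mean as a line and each y axis starting at 0. CST1 and CSTB are far above the controls in both knockdown libraries, CST3 is slightly below, and the CST2 groups overlap.

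Counted by the threshold used for all genes, which for these members describes the values they were picked on and tests nothing, CST1, CST4 and CSTB were on the higher side, CST3 on the lower, and CST2 and CSTA on neither. CST4 is in this count only through the group where it was high. This is 4 of 6 members, beside 24.9% of all tested genes, with 3 higher beside 11.1% and 1 lower beside 13.8%. The groups did not overlap in 5 of 6 members, beside 67.6% of all tested genes. Since the family was picked with these values known, nothing is read from these shares. The median log2 difference of the 6 genes was 0.75. In bulk RNA, a change in the share of cells that express a gene cannot be told apart from a change in the level per cell.

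Seen as a sum, the 6 genes reached 83.2 and 88.6 RPKM in the controls and 130.2 and 133.7 RPKM in the knockdown libraries. Both knockdown sums lay above both control sums, and the make-up changed as well. CST3 made up 61.5% and 65.4% of the sum in the controls, against 31.6% and 34.3% after knockdown. CST1 went from 8.58% and 10.2% to 31.4% and 32.3%. CSTB stayed nearer its former share, at 26.7% and 21.8% in the controls against 33.6% and 30.9% after knockdown. The secreted genes thus shifted from a CST3 level 7.16 and 6.41 times that of CST1 to one 1.01 and 1.06 times as high.

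Genes of the proteases that cystatins inhibit were mostly lower in knockdown cells. This list and the gene lists that follow were also chosen with earlier results of these data known. Their counts and p-values are therefore a description and not independent tests. The list of papain-like cathepsins and legumain, an asparagine-specific protease that cystatin C also inhibits through a separate site, had 12 genes, 11 of them tested. Of these, 6 fell, 0 rose and 5 did not pass (limma adjusted p under 0.05, beside 13.8% of all tested genes lower), with a median log2 difference of -0.54 beside -0.03 over all tested genes. CTSL, the endopeptidase cathepsin L and the most abundant of the list, fell from 571.6 ± 27.3 to 328.6 ± 3.94 RPKM (SD, n = 2; log2 difference -0.86 ± 0.09 SE, limma adjusted p = 0.00528). CTSB, cathepsin B, fell from 103.9 ± 10.3 to 74.3 ± 0.0894 RPKM (-0.54 ± 0.09, limma adjusted p = 0.0138). CTSC, the dipeptidyl peptidase that activates granule serine proteases, fell from 13.2 ± 0.385 to 6.94 ± 0.364 RPKM (-0.98 ± 0.08, limma adjusted p = 0.00415). Legumain, LGMN, fell from 9.15 ± 0.880 to 5.13 ± 0.408 RPKM (-0.88 ± 0.12, limma adjusted p = 0.00756). CTSV, a close relative of CTSL, and CTSH, an aminopeptidase, passed more narrowly (limma adjusted p = 0.0397 and 0.0477).

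Cathepsins S and Z just missed the threshold, with log2 differences of -0.58 ± 0.16 for CTSS and -0.31 ± 0.10 for CTSZ (limma adjusted p = 0.0521 and 0.0659). Both passed as lower with the stricter filter (adjusted p = 0.0244 and 0.0428), with limma-voom (0.00144 and 0.00533), and without control replicate 1 (0.0264 and 0.0216). CTSF, CTSK and CTSO had differences of -0.54 ± 0.23, -0.08 ± 0.21 and -0.10 ± 0.16 and did not pass, and CTSW had too few reads to be tested. CTSC, CTSL and LGMN passed under all 13 alternatives. CTSB did not pass without knockdown replicate 1 or 2 (adjusted p = 0.0603 and 0.0522), and CTSB, CTSV and CTSH did not without the filter on low values (0.0657, 0.153 and 0.104). CTSH did not pass when any 1 of the 4 libraries was left out (adjusted p = 0.0798 to 0.218), and CTSV did not without control replicate 1, control replicate 2 or knockdown replicate 1 (adjusted p = 0.072, 0.16 and 0.123). The count of lower genes ran from 3, without knockdown replicate 1 or without the filter, to 8, with the stricter filter or limma-voom. CTSH also did not pass without TMM factors, with median-of-ratios factors or without a trend in the spread (0.0776, 0.0579 and 0.0961). CTSL has pseudogene copies, so its level is uncertain to that extent.

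**Figure D3:**
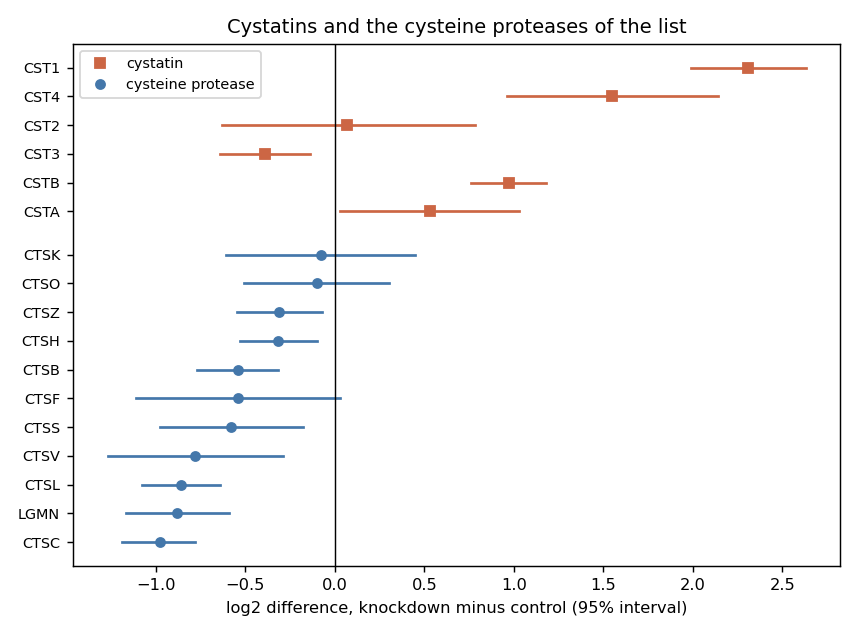
Log2 difference of knockdown minus control (x axis, on the log2(RPKM + 0.1) scale) with its 95% interval for the 6 cystatin genes (squares) and the 11 tested papain-like cathepsins and legumain (circles). CST1, CST4, CSTB and CSTA lie right of 0 and CST3 left of it, while all 11 protease genes have estimates below 0.

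The protease genes summed to 750.6 and 820.2 RPKM in the controls and to 489.5 and 485.5 RPKM in the knockdown libraries. The groups did not overlap. Cystatin RPKM per protease RPKM was 0.111 and 0.108 in the controls, against 0.266 and 0.275 after knockdown. These are ratios of RNA levels per annotated exon length, in which CTSL and CST3 weigh heavily. An exact permutation test of 1 such value cannot go below p = 0.333 with 2 libraries against 2.

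**Figure D4:**
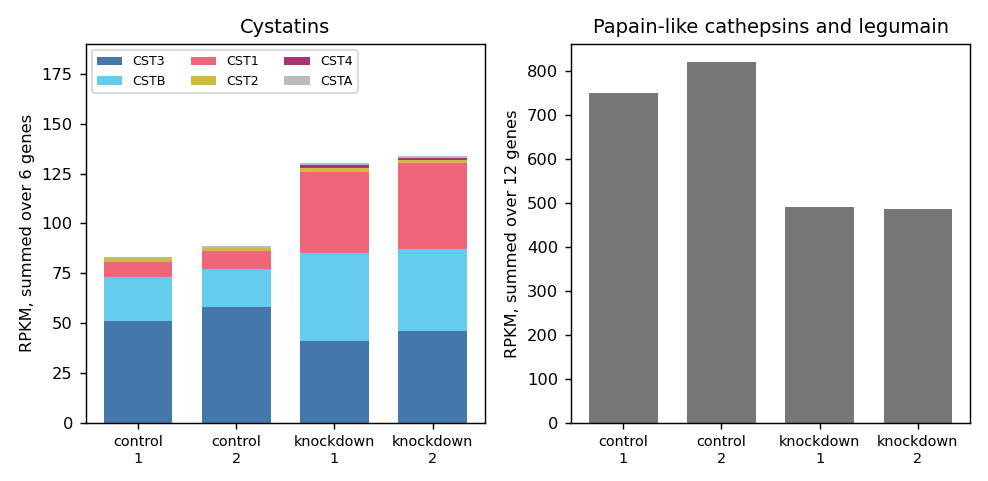
Summed RPKM of the 6 cystatin genes, stacked by gene (left), and of the 12 papain-like cathepsins and legumain (right), in each of the 4 libraries, with y axes starting at 0. The cystatin sum is 83.2 to 88.6 in the controls and 130.2 to 133.7 in the knockdown libraries, and the protease sum runs the other way.

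Cathepsins of other protease classes, which cystatins do not inhibit, were listed separately. Of 3 tested genes 2 fell, beside 13.8% of all tested genes: CTSD, an aspartic protease, from 293.9 ± 16.9 to 161.6 ± 9.08 RPKM (log2 difference -0.93 ± 0.09, limma adjusted p = 0.00468), and CTSA, a serine carboxypeptidase, from 55.3 ± 1.25 to 34.8 ± 0.440 RPKM (-0.73 ± 0.07, limma adjusted p = 0.00428). CTSE was not distinguishable from 0 (0.27 ± 0.43, limma adjusted p = 0.679). The median of the list was -0.73. Both CTSD and CTSA share exon bases with genes next to them, which leaves their values uncertain.

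Calpains are cytosolic, calcium-dependent cysteine proteases, which type 1 and most type 2 cystatins do not inhibit and calpastatin does. Of 17 genes in their list 11 were tested, of which 2 rose and 1 fell, beside 11.1% and 13.8% of all tested genes, with a median log2 difference of 0.08. CAPN2, the catalytic subunit of m-calpain, rose from 29.8 and 28.2 RPKM to 40.2 and 40.6 RPKM (0.41 ± 0.06, limma adjusted p = 0.0116). CAPN1, that of mu-calpain, fell from 16.9 and 17.7 RPKM to 13.2 and 13.9 RPKM (-0.41 ± 0.08, limma adjusted p = 0.018). CAST, the gene of calpastatin, rose from 15.7 ± 0.301 to 20.3 ± 0.849 RPKM (0.31 ± 0.07, limma adjusted p = 0.0309). CAPN2 did not pass without knockdown replicate 1 or 2 (adjusted p = 0.0613 and 0.0685) or without a trend in the spread (0.0503). CAPN1 did not without control replicate 2 or either knockdown library (adjusted p = 0.0527 to 0.0951), without the filter on low values (0.0566) or without the trend (0.0553), and CAST did not pass when any 1 of the 4 libraries was left out (0.0599 to 0.172), without the filter (0.0706) or without the trend (0.0869). CAPN1 and CAST share exon bases with genes on the other strand.

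Among 14 inhibitors of cysteine or serine proteases outside the family 10 were tested, of which 2 rose and 0 fell, beside 11.1% and 13.8% of all tested genes, with a median log2 difference of 0.08. SERPINB9, an inhibitor of granzyme B, rose from 4.24 ± 0.420 to 6.80 ± 0.0871 RPKM (0.61 ± 0.10, limma adjusted p = 0.0143), and SERPINB1, an inhibitor of neutrophil proteases, from 15.4 ± 1.58 to 21.1 ± 1.42 RPKM (0.39 ± 0.09, limma adjusted p = 0.0365). SERPINB9 did not pass without knockdown replicate 1 (adjusted p = 0.0538) or the filter on low values (0.0545). SERPINB1 did not without control replicate 2 or either knockdown library (0.0711 to 0.154), without the filter (0.113) or without the trend (0.0861). The cross-class inhibitor SERPINB3, which blocks papain-like cathepsins, had a difference of -0.13 ± 0.39. Cystatin A is a substrate of transglutaminases in the skin, and of 11 genes in the list of transglutaminases and cornified envelope partners only 2 were tested. TGM2, the tissue transglutaminase, rose from 25.3 ± 0.556 to 47.0 ± 0.452 RPKM (0.83 ± 0.07, limma adjusted p = 0.00382), and TGM3 did not pass (0.04 ± 0.27). TGM2 shares exon bases with a gene on the other strand.

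The rest of the cystatin superfamily was nearly silent in these cells. Of 11 other genes 9 had a row and 2 were tested. KNG1, the gene of kininogen, a liver plasma protein with several cystatin domains, fell from 0.381 ± 0.0390 to 0.134 ± 0.0407 RPKM on 5 to 28 reads a library (log2 difference -1.09 ± 0.22, limma adjusted p = 0.0231). KNG1 entered the test only through the controls, in which it was higher, and its difference ran from -0.30 with a pseudocount of 1 to -1.53 with 0.01. The call was lost without the filter on low values (adjusted p = 0.17) and without control replicate 1, control replicate 2 or knockdown replicate 1 (0.0957, 0.0771 and 0.0804), and KNG1 shares exon bases with an antisense gene. AHSG, the gene of fetuin A, measured 0.604 ± 0.00146 and 0.852 ± 0.259 RPKM (0.35 ± 0.24, limma adjusted p = 0.318). CST7, the gene of cystatin F, known from leukocytes, had 4 to 14 reads and was not tested. CST5, CST9L and CST11, which lie in or beside the chromosome 20 cluster, had at most 1 read in any library.

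The differences of CST1 and CST4 were set beside those of their genomic surroundings. Within 1 Mb of the cluster 30 further genes had a row, and 6 had enough reads to be tested, all on the CST3 side. Of these 1 rose, 1 fell and 4 did not pass, beside 24.9% of all tested genes called, with a median log2 difference of -0.04. NAPB, GZF1 and NXT1, the tested genes nearest to the cluster at 205.2, 253.6 and 271.9 kb, had differences of 0.03 ± 0.12, 0.19 ± 0.08 and -0.11 ± 0.15 and did not pass (limma adjusted p = 0.851, 0.14 and 0.627). A gene with only a clone-based name, at 436.4 kb, did not pass either (-0.37 ± 0.17, limma adjusted p = 0.17). Another such gene, at 476.8 kb, rose from 0.155 ± 0.0525 to 0.621 ± 0.0822 RPKM on at most 16 reads (1.46 ± 0.23, limma adjusted p = 0.0123, and 0.47 with a pseudocount of 1). It entered the test only through the knockdown libraries, in which it was higher, and did not pass without the filter on low values (adjusted p = 0.108). THBD, the gene of thrombomodulin, fell from 2.35 ± 0.00972 to 1.32 ± 0.0350 RPKM (-0.85 ± 0.13, limma adjusted p = 0.0113), a call lost without control replicate 2 (adjusted p = 0.0557) or the filter on low values (0.0511). The nearest tested genes of the stefins did not pass: PDXK (0.13 ± 0.09) and RRP1 (-0.22 ± 0.07) beside CSTB, and SLC15A2 (0.11 ± 0.25) and CCDC58 (0.34 ± 0.10) beside CSTA.

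**Figure D5:**
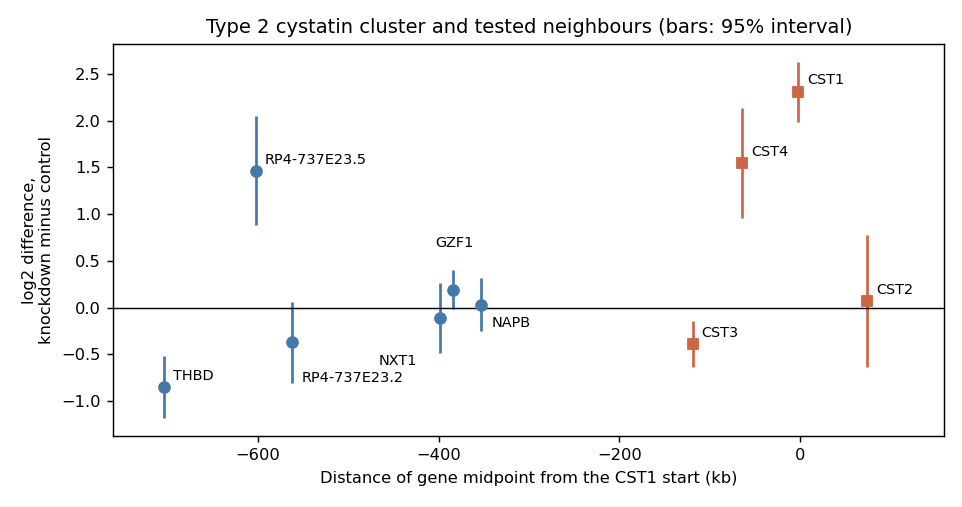
Log2 difference of knockdown minus control with its 95% interval (y axis) against the distance of each gene's midpoint from the CST1 start in kb (x axis), for the 4 cystatin genes of the cluster (squares) and the 6 tested neighbours (circles). CST1 and CST4 lie high between CST3 and CST2, and 4 of the 6 neighbours have intervals that include 0.

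The genes most like each member were found by the distance between log2 levels over the 4 libraries, each centred on its own mean. Only tested genes were ranked, leaving out genes with clone-based names and the other members. With 4 libraries in 2 groups such likeness is loose, and it is given as a description only. CST1 was nearest to KRT17, a keratin of basal and stressed epithelia, at a distance of 0.103. KRT17 measured 0.215 and 0.321 RPKM in the controls and 1.86 and 1.89 RPKM in the knockdown libraries, a far lower level than that of CST1. MAP7D2 and RPS3AP23 followed at 0.137 and 0.207. CST4 was nearest to the chemokine gene CXCL1 (0.132), and CSTA had LCN2, the gene of lipocalin 2, among its 3 nearest (0.0307). CSTB was nearest to BNIP3P1 (0.00997), a pseudogene, and to TIPARP (0.0296), an aryl hydrocarbon receptor target. CST3 was nearest to ARHGEF4 and NEIL1 (0.0115 and 0.0211), and CST2 to SIKE1 (0.0512).

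Markers of other cell types were measured beside these results. The 5 fibroblast markers summed to 1.22 and 1.42 RPKM in the controls and to 3.53 and 3.35 RPKM in the knockdown libraries, with 2 of 5 higher. Of these 2, LUM went from 1.13 ± 0.0799 to 2.84 ± 0.208 RPKM. The other, COL1A1, went from 0.0269 ± 0.00134 to 0.131 ± 0.00327 RPKM on 5 to 16 reads a library. COL1A1 entered the test only through the knockdown libraries, in which it was higher. The 3 endothelial markers summed to 8.92 and 9.42 RPKM and to 6.02 and 6.18 RPKM, with 2 of 2 tested lower. PECAM1, at 8.78 ± 0.329 RPKM in the controls, held most of that sum. CDH5 and VWF were near 0 there, at 0.321 ± 0.0151 and 0.0656 ± 0.0111 RPKM. Of the 5 epithelial markers 2 were higher, of the 9 tested hepatocyte markers 4 were lower, and of the 2 tested leukocyte markers 1 was lower. PTPRC was at 0 in 3 of 4 libraries, and the leukocyte sum was mostly CD68, which shares exon bases with another gene on the same strand. Beside these counts stand 11.1% higher and 13.8% lower among all tested genes. The fibroblast, endothelial, epithelial and hepatocyte sums did not overlap between the groups, whereas the leukocyte sum did (51.3 and 63.3 RPKM in the controls, 63.5 and 62.7 RPKM after knockdown). The part of any list in the cystatin differences was not tested.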

How the data were processed

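The tools named in the submitters' processing notes are StringTie 1.3.2, edgeR 3.12.1, Trimmomatic 0.36 and, from Subread 1.5.1, featureCounts. As build they give mouse mm9, yet 26436 gene names occurred once in GENCODE 29 (GRCh38), of which 99.68% shared its chromosome and 93.4% its start and end. The sources used here do not give the strand setting or how molecular identifiers were used. The deposited values are RPKM, 1 library a table, per the file headers and the values themselves. RPKM times exon length gave whole reads for 100% of values within 0.01 of a read, and these set the depth. Here RPKM was divided by TMM factors (0.972 to 1.03, trimming 30% of log ratios and 5% of levels, from recovered reads), and log2(RPKM + 0.1) was tested in R 4.3.3 by limma 3.58.1, using a trended prior and Benjamini-Hochberg adjustment over 20221 genes. A gene was tested if at least 2 libraries reached the RPKM of 10 reads at median depth and all held 15 reads together. Residual degrees of freedom were 2 and prior ones 3.56. The procedure was tested on simulated data with 200 changed genes. Printed RPKM values are as deposited. Members and lists were chosen with earlier results of these data known. Named genes are HNRNPM, the members, up to 4 called genes a list with the smallest adjusted p (or the 2 most abundant), all papain-like cathepsins, tested neighbours within 1 Mb, and the 3 genes most like each member. A few further list genes were named after their values were seen. Alternatives varied the pseudocount, filter, scaling, spread, tool and libraries. Counting intervals cover counting error only.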

Additional observations from a re-analysis of the deposited data

How the results depend on the processing

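Over 13 alternatives the log2 difference of CST1 ran from 2.13 to 2.49 and that of CSTB from 0.88 to 1.06, values that describe members picked on them. CST1 was at 2.10, in a setting chosen after seeing the data, as a sum with CST2 and CST4. CST4 ran from 0.65 to 1.83 and CSTA, which did not pass in any, from 0.27 to 0.72. Without the filter on low values the genes called dropped from 5032 to 1806 (693 higher, 1113 lower) and those of the related lists from 15 to 7. Papain-like proteases lower dropped from 6 to 3, and CST3 (-0.39) and CST4 (1.55) no longer passed. The count of cluster neighbours went from 2 to 1 without this filter. Both neighbours called in the main fit were lost there, and the 1 called was a gene not tested in the main fit. CST3 also did not pass without TMM factors (-0.32) or without a trend in the spread (-0.39). With the stricter filter 1 neighbour was called, and CST2, CST4 and CSTA had too few reads to be tested. The causes were not tested.

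Leaving out 1 library in turn gave 2513 to 3218 genes called (968 to 1531 higher, 1322 to 1690 lower), 6 to 15 in the related lists, 3 to 6 papain-like proteases lower, 1 to 2 neighbours, CST3 at -0.49 to -0.29 and CST2 at -0.24 to 0.39, so that CST2 turned sign. Signs also turned for CTSK (-0.35 to 0.18), CTSO (-0.30 to 0.09), NXT1 (-0.29 to 0.08) and NAPB (-0.01 to 0.08), none of which passed in the full data. Limma-voom on recovered reads called 7232 genes. Replicate numbers are shared by the groups, but deviations of same-numbered libraries correlated at only 0.0628, so the numbers were not taken to pair them. With the replicate block 5129 genes were called, and CTSS was among the lower ones (adjusted p = 0.0278).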
